A study of Homo sapiens with 6 samples.

Results

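The transcriptome of control SH-SY5Y cells was described from the 3 arrays whose agent label is control, out of 6 arrays in all; the other arrays, from cells given endosulfan, were not used. SH-SY5Y is an established human neuroblastoma cell line, and neuroblastoma is a tumour of the developing sympathetic nervous system. Per the labels, the cells grew in a mixture of MEM and F12 media with 10% fetal bovine serum, and total RNA was hybridised as biotin-labelled cRNA to Affymetrix PrimeView arrays. The labels give the control cells no genetic change and name no vehicle or time for them. The treatment text attached to every sample, controls included, names endosulfan, so membership rests on the agent label. The arrays are called biological replicates, but no separate culture, passage or day is named, so the spread between them may be technical. Rows of the array's own controls were dropped, probe sets naming exactly 1 gene were kept, and each gene was represented by its probe set with the highest control mean. This gave 18132 genes, each with a log2 RMA value in each array. Gene lists covering sympathetic, neuronal, receptor, channel, metabolic and other-lineage genes numbered 43, and 788 of their 879 genes were measured.

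Sympathetic neurons and adrenal chromaffin cells arise from the neural crest. A core circuit of transcription factors, among them PHOX2A, HAND2, GATA2, GATA3, TFAP2B and ISL1, switches on the enzymes that turn tyrosine into dopamine and noradrenaline. Neuroblastoma cells can sit in an adrenergic state that keeps this circuit or in a mesenchymal state closer to early neural crest and Schwann precursor cells. Noradrenaline is stored in dense-core granules beside chromogranins and neuropeptides, and released as a transmitter.

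Signal above background was judged against genes that are silent in most tissues. These 481 reference genes were olfactory receptors, bitter taste receptors, keratin-associated proteins, beta defensins and alpha interferons, with a median of 3.75 on the log2 scale. A gene was called above the reference range when its value in each of the 3 arrays exceeded the 95th percentile of the reference genes in that array, which was 6.23 in control 1, 6.28 in control 2 and 6.36 in control 3. A stricter level used the 99th percentile, which was 7.96, 7.95 and 8.10. The families were not equally dark: 4 of 340 olfactory receptors but 18 of 82 keratin-associated proteins lay above the 95th percentile, the highest of them at 10.38. The array's background probes, which match no transcript, also rose with their G and C content, in control 1 from 3.01 at 14 G or C bases to 6.47 at 21, 7.88 at 23, 8.42 at 24 and 10.56 at 25. The probes with 24 and 25 lay above the 99th percentile in all 3 arrays. Values between the percentiles, and some above the 99th, therefore overlap the background of the probes richest in G and C, the base content of each member's probes was not available and its part was not tested, and a value within the range does not show that a transcript was absent. Probe sets hybridise with different strength, so ranks below order signals and not transcript amounts.

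The arrays were alike, with Pearson's r across genes, which are not independent replicates, of 0.985 between controls 1 and 2, 0.989 between 1 and 3 and 0.995 between 2 and 3. Control 1 stood apart from the others in gene values. Control 2 stood apart in the poly-A spike-ins, RNAs added before labelling, whose mean was 7.73 against 6.13 in control 1 and 5.84 in control 3. The 3′ minus 5′ log2 difference of GAPDH, a measure of transcript integrity, was 0.81, 0.74 and 0.70 in controls 1, 2 and 3. That of beta-actin was larger at 3.66, 3.57 and 3.53. Control 1 had the largest of both. The bearing of these differences on levels and on disagreement between probe sets was not tested.

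Of the 18132 genes, 7295 were above the reference range in every array (40.2%), and 3495 were above the 99th percentile (19.3%). Of the 788 list members, 320 were above the reference range. The 20 genes with the highest means lay between 14.02 and 14.34 and differed little between arrays, with SDs of 0.007 to 0.11. They sat near the highest value of each array, 14.38, 14.36 and 14.39 in controls 1, 2 and 3. RMA equalises array distributions, so small SDs at this end of the scale say little about agreement. Among the 20 genes 17 encoded ribosomal proteins, led by RPS2 with 14.31, 14.35 and 14.35 in controls 1, 2 and 3. The others were EEF2, the translation elongation factor, MIF, a secreted cytokine with tautomerase activity, and H4C3, a histone H4 gene. Ribosomal protein and histone genes have near-identical copies whose transcripts may share probes, so these assignments are uncertain.

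**Figure D1:**
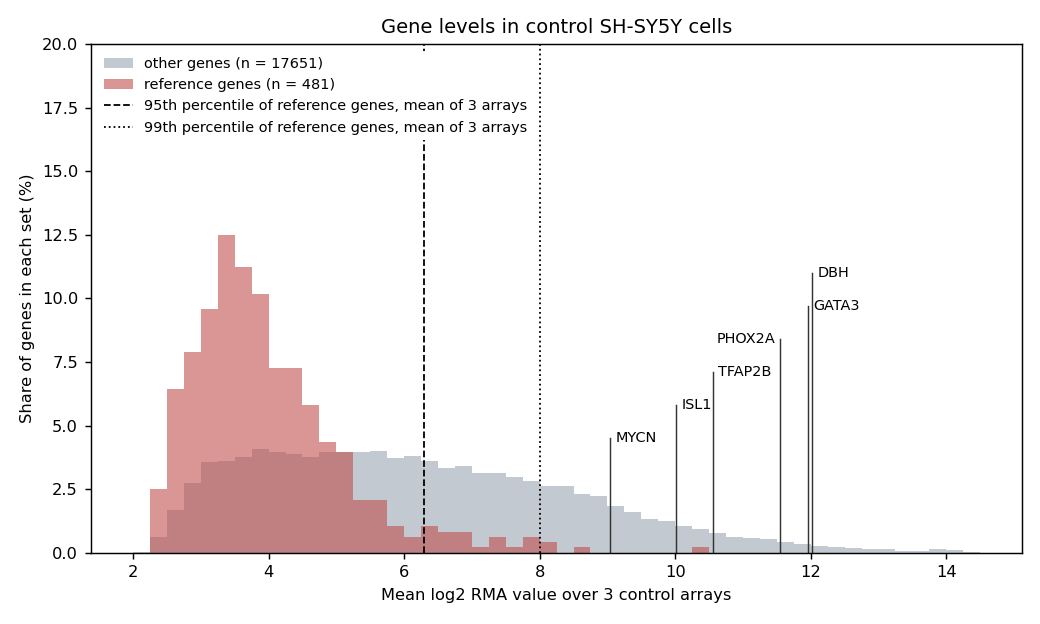
Distribution of gene levels, as the share of genes in percent (y axis) by mean log2 RMA value over the 3 control arrays (x axis), for the 481 reference genes and for all other genes; the dashed and dotted lines mark the 95th and 99th percentiles of the reference genes, averaged over arrays. The vertical marks of PHOX2A, GATA3, TFAP2B, ISL1, DBH and MYCN, from 9.04 to 12.02, all lie right of both lines, and their heights carry no value.

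All 6 markers that define the sympathetic label, PHOX2A, GATA3, TFAP2B, ISL1, DBH and MYCN, were above the 99th percentile of the reference genes, with ranks from 240 to 2168 among the 18132 genes. Of 23 measured markers of other cell types (Schwann cells, fibroblasts, blood, endothelium, epithelium and adrenal cortex), 1 was above the reference range, SOX10, the transcription factor of neural crest and Schwann cells, and none was above the 99th percentile. That count holds for these markers alone. In the fuller lists of such cell types described further on, TWIST1, TEAD4, VIM, COL6A1, SPARC, THY1 and TMEM119 were above the 99th percentile. The median of the 23 was 4.26, with FOXD3 lowest at 2.74 and SOX10 highest at 6.60. Their log2 values summed to 98.9 in control 1, 99.6 in control 2 and 100.3 in control 3. All 6 defining markers were thus above the range, and so were some genes of other lists. The markers and lists were chosen with earlier results of these data known, so this count is a description and no test. Some other adrenergic and catecholamine genes were within the range, as given below.

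Adrenergic transcription factors stood high in all arrays. Of 24 measured, 20 were above the reference range (83.3%, against 40.2% of all genes). Above the 99th percentile were 17, against 19.3% of all genes, and the list's median was 9.05. HAND2, a basic helix-loop-helix factor needed for sympathetic neurons, read 13.20, 13.19 and 13.19 in controls 1, 2 and 3, rank 80. GATA2, a zinc finger factor of the same circuit, read 13.11, 13.16 and 13.14, rank 87. Both were nearly identical between arrays. GATA3, its close relative, read 12.11, 11.86 and 11.90, a mean of 11.96 ± 0.13 (SD, n = 3). PHOX2A, the homeodomain factor that drives the noradrenaline enzymes, read 11.28, 11.78 and 11.60, a mean of 11.55 ± 0.25 (SD, n = 3). Control 1 was the highest array for GATA3 and the lowest for PHOX2A. TFAP2B, an AP-2 factor of the sympathetic lineage, read 10.86, 10.37 and 10.43, with a mean of 10.55 ± 0.27 (SD, n = 3). ISL1, a LIM homeodomain factor, read 10.49, 9.68 and 9.88, with a mean of 10.02 ± 0.42 (SD, n = 3). Both were highest in control 1, by more than controls 2 and 3 differed from each other.

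MYCN, the oncogene amplified in a subset of neuroblastomas, read 9.10, 9.08 and 8.94, a mean of 9.04 ± 0.09 (SD, n = 3), with 2 of its 4 probe sets above the range. MYC, its relative, was measured in another list and read 11.06, 11.26 and 11.09 with its single probe set. Their levels come from different probes and cannot be set against each other. LMO1, a LIM-domain cofactor and neuroblastoma susceptibility gene, had a mean of 9.89, and SOX11, a factor of immature neurons, one of 9.44. HAND1, the paralogue of HAND2, had a mean of 8.61. The 4 members within the reference range were EYA1, MEIS1, DACH1 and INSM1, with means of 5.46, 5.31, 3.67 and 3.03. Among the 20 members above the range, 14 were higher in control 1 than in the mean of the other arrays, with a median difference of 0.23, against 48.0% of all genes above the range and a median difference of -0.03.

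Of 23 mesenchymal transcription factors, 6 were above the reference range (26.1%, against 40.2% of all genes). Above the 99th percentile were 2, against 19.3% of all genes. The list's median was 5.58, and its median member lay above 46.1% of all genes, near their middle. TWIST1, a basic helix-loop-helix factor of the neural crest, was its exception in level, with 12.05, 12.15 and 11.85. TEAD4, a DNA-binding partner of the Hippo pathway coactivators, read 8.62, 9.09 and 9.11. The coactivator YAP1 itself was within the range at 4.19, and its relative WWTR1 sat just above it at 6.58. PRRX1, a homeodomain factor that marks the mesenchymal state, read 4.17, 4.48 and 4.23. SNAI2, NOTCH1, NOTCH2, NOTCH3, FOSL1, FOSL2, RUNX2 and SOX9 were within the range as well. Of 21 mesenchymal matrix and surface genes, 6 were above the range and 4 above the 99th percentile. These 4 were VIM, the intermediate filament vimentin, at 10.47, COL6A1, a collagen VI chain, at 10.25, SPARC, a matrix glycoprotein, at 9.03, and THY1, a surface glycoprotein also carried by neurons, at 8.40. COL1A1, the fibrillar collagen chain of fibroblasts, was within the range in every array at 5.57, 5.57 and 5.54.

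**Figure D2:**
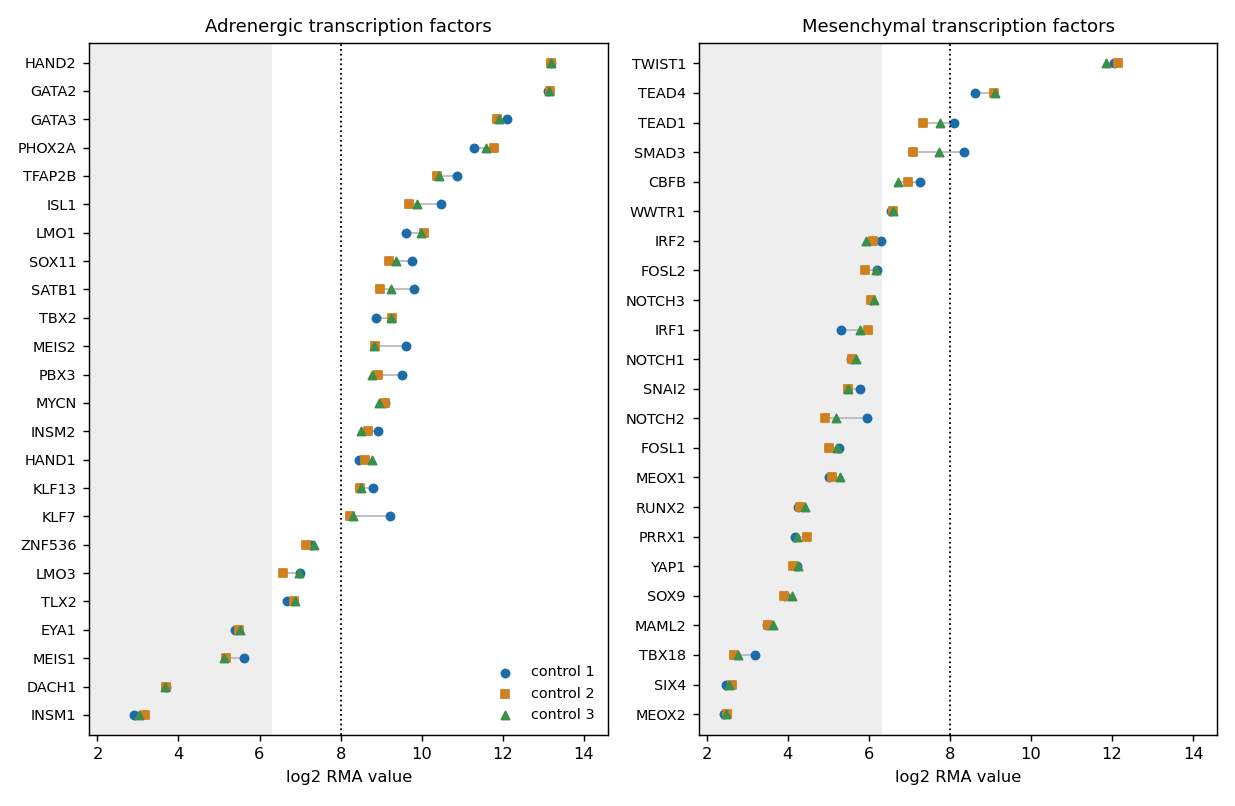
Log2 RMA value (x axis) of each measured adrenergic and mesenchymal transcription factor in control 1 (circle), control 2 (square) and control 3 (triangle), ordered by mean; the grey band ends at the 95th percentile of the reference genes and the dotted line is the 99th, both averaged over the arrays. Of the adrenergic factors 20 of 24, and of the mesenchymal factors 6 of 23, were above the range in every array.

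Genes of catecholamine synthesis, storage and breakdown were above the reference range for 12 of 15 measured members (80.0%, against 40.2% of all genes). Above the 99th percentile were 7, against 19.3% of all genes. DBH, which makes noradrenaline from dopamine inside granules, read 11.79, 12.19 and 12.09, a mean of 12.02 ± 0.21 (SD, n = 3) and rank 240. CYB561, the granule cytochrome that supplies DBH with electrons, had a mean of 11.69. DDC, which makes dopamine from L-DOPA, read 10.99, 10.66 and 10.73, with 1 of 3 probe sets above the range. TH, the rate-limiting tyrosine hydroxylase, lay between the percentiles with 7.41, 7.70 and 7.85 and 2 of 3 probe sets above the range. PNMT, which makes adrenaline from noradrenaline, read 7.33, 8.15 and 7.87 with a single probe set. Both were lowest in control 1.

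The cofactor of TH, tetrahydrobiopterin, is made by GCH1, PTS and SPR and recycled by QDPR. QDPR had a mean of 9.61, PTS 8.88 and SPR 7.34. GCH1, the first enzyme, read 6.98, 6.56 and 6.27: controls 1 and 2 exceeded their thresholds and control 3 did not, so it was not called. The monoamine oxidases were both above the 99th percentile. MAOA, which prefers serotonin and noradrenaline, read 9.85, 8.47 and 8.63, an SD of 0.75 (n = 3), with control 1 highest. MAOB, the other isoenzyme, read 9.40, 8.94 and 9.12. Among the transporters, SLC6A2, which takes up noradrenaline, had a mean of 7.86 and SLC18A1, the vesicular monoamine transporter of chromaffin cells, one of 7.48. SLC6A3, which takes up dopamine, and SLC18A2, the vesicular monoamine transporter of central and sympathetic neurons, were within the range at 5.32 and 5.00.

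Dense-core granule genes were above the range for 10 of 17 members (58.8%, against 40.2% of all genes). VGF, a granule peptide precursor, read 12.54, 12.63 and 12.67, GAL, the precursor of galanin, 12.27, 12.66 and 12.38, and CHGA, chromogranin A, 11.56, 11.63 and 11.57. VGF and CHGA differed little between arrays, and GAL was highest in control 2. NPY, the neuropeptide co-released with noradrenaline, read 9.88, 10.41 and 10.26. CHGB, chromogranin B, had a mean of 8.88 with 1 of 4 probe sets above the range. PAM, which amidates peptides, had a mean of 8.77. VIP and ADCYAP1, precursors of vasoactive intestinal peptide and PACAP, were within the range at 6.15 and 5.27.

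The 250 bases upstream of the RefSeq gene start (GRCh38.p14) were available for 14425 of the 18132 genes and show a property that the choice of genes did not use. A ratio of observed to expected CG dinucleotides of at least 0.6, as in CpG islands, was found in 86.88% of genes above the 99th percentile, 80.76% of genes between the percentiles, 51.39% of genes within the range and 1.04% of the reference genes, against 65.11% of all genes. Background probes rose with G and C content, as given above, and its part in this gradient was not tested. Within the sympathetic genes above the 99th percentile, both CG-poor and CG-rich windows occurred, and 4 sequences, chosen after their values were seen, show the contrast. Each is printed 5′ to 3′ on the gene's strand, with CG dinucleotides in capitals. DBH (chr9:133636113-133636362, plus strand) had 5 CG and a ratio of 0.259, and DDC (chr7:50565406-50565655, minus strand) had 2 and 0.183. PHOX2A (chr11:72244177-72244426, minus strand) had 26 CG and a ratio of 0.78, and CHRNA3, a nicotinic receptor subunit (chr15:78620997-78621246, minus strand), had 26 and 0.784. ATTA or TAAT, the core letters bound by many homeodomain factors, occurred on either strand 3 times in the DBH window, 4 times in the DDC window and not in the other 2, against 39.23% of all windows and 29.52% of those above the 99th percentile that hold at least 1. Overlapping matches were counted, each word is the reverse complement of the other, and a match is a description of letters alone.
DBH: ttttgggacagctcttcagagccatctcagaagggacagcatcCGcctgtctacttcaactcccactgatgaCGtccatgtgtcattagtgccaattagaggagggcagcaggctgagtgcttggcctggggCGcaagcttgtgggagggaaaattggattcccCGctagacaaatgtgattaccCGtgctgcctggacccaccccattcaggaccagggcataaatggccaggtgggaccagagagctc
DDC: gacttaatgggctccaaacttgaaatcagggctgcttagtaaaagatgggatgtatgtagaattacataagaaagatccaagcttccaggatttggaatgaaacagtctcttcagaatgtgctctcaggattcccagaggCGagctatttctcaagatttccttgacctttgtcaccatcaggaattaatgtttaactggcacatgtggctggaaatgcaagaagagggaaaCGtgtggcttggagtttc
PHOX2A: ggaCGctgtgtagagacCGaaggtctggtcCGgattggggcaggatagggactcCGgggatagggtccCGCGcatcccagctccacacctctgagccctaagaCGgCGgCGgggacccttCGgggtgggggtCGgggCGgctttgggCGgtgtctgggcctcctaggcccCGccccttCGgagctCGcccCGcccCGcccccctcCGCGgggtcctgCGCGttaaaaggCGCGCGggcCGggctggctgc
CHRNA3: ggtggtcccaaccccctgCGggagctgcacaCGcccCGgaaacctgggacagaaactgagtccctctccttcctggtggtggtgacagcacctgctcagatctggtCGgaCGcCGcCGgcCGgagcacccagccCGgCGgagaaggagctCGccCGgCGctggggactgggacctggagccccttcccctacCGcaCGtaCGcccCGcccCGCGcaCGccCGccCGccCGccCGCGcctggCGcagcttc

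Neuronal cytoskeleton and axon genes were the list with the largest share above the range among the 43, 25 of 27. That was 92.6%, against 40.2% of all genes, and 18 were above the 99th percentile. TUBB3, the neuronal beta-tubulin, read 13.13, 13.48 and 13.36, rank 70. UCHL1, a neuronal ubiquitin hydrolase, read 12.65, 12.61 and 12.71 with 4 of 4 probe sets above the range. STMN2, a growth cone protein that binds tubulin, read 12.79, 11.85 and 12.22, with control 1 highest. STMN1, CRMP1, DPYSL2 and ELAVL3, which act in microtubule turnover, axon guidance signalling and neuronal RNA binding, had means of 12.95, 12.05, 12.02 and 11.67. GAP43, a growth cone membrane protein, had a mean of 10.74. The members within the range were PRPH, peripherin, and RBFOX3, the mature-neuron antigen NeuN. Of the 25 members above the range, 18 were higher in control 1 than in the mean of the others, with a median difference of 0.22. Over all genes above the range, 48.0% were higher in control 1, with a median difference of -0.025.

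The synaptic vesicle list was divided, with 11 of 21 members above the range (52.4%, against 40.2% of all genes). Of them, 5 were above the 99th percentile. SYP, the vesicle protein synaptophysin, read 9.98, 10.55 and 10.43. RAB3A, a GTPase of vesicle release, read 9.77, 10.53 and 10.23. SNAP25, a fusion protein of the presynaptic membrane, ran the other way with 10.30, 9.22 and 9.29, and 2 of 4 probe sets above the range. SYT11 and SYN1, a synaptotagmin and a synapsin, had means of 8.63 and 8.29.

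Genes that define other neurons were almost all within the reference range. None of 13 midbrain dopamine neuron genes was above it, and their median was 4.57. PITX3, LMX1A, FOXA2, NR4A2 and EN1, factors of that lineage, had means of 5.71, 5.51, 4.95, 4.57 and 3.18. None of 14 forebrain genes was above the range either, including GAD1 and GAD2, the enzymes of GABA synthesis, and SLC17A7, a vesicular glutamate transporter. With olfactory receptors alone as reference genes, 2 midbrain and 2 forebrain genes were above it. Of 9 cholinergic and serotonin genes, 3 were above the range (33.3%, against 40.2% of all genes). CHAT, which makes acetylcholine, and SLC18A3, which loads it into vesicles, lay between the percentiles with means of 6.68 and 7.05. FEV, a transcription factor of serotonin neurons, read 9.08, 9.52 and 9.56 with its single probe set. The serotonin enzymes TPH1 and TPH2 and the serotonin transporter SLC6A4 were at 3.51, 3.26 and 4.25. Among glial genes, 0 of 8 astrocyte and oligodendrocyte genes were above the range. Of Schwann and satellite glia genes 3 of 10 were above it (30.0%), not far below the 40.2% of all genes. These 3 were NGFR, GFAP and SOX10, with means of 6.71, 6.64 and 6.60, all close to the threshold, while S100B and ERBB3 were at 5.12 and 4.57.

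Most transmitter receptor genes were within the range, as were most genes, of which 40.2% were above it. Nicotinic receptors are cation channels that transmit the signal from preganglionic fibres, and 3 of 14 subunits were above the range. CHRNA3, the ganglionic alpha subunit, read 10.16, 9.71 and 9.93 with 3 of 4 probe sets above the range. CHRNB2, a beta subunit, read 8.32, 8.43 and 8.69, and CHRNB1, the muscle beta subunit, 7.02, 6.89 and 6.87. CHRNB4 and CHRNA5, whose genes lie beside CHRNA3, were within the range at 5.90 and 5.44.

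None of the 5 muscarinic receptors was above the range, from CHRM1 at 5.98 to CHRM2 at 2.90. GABA and glycine receptors, chloride channels in the main and the target of cyclodiene insecticides, had 1 of 22 measured members above the range. That was 4.5%, against 40.2% of all genes. The member above it was GABBR1, a subunit of the G protein-coupled GABA receptor and no channel, at 6.62, 6.57 and 6.82. Of 24 glutamate receptor subunits 4 were above the range (16.7%). GRIN1, the obligatory NMDA receptor subunit, was above the 99th percentile with 8.33, 8.61 and 8.55 but with 1 of 4 probe sets.

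**Figure D3:**
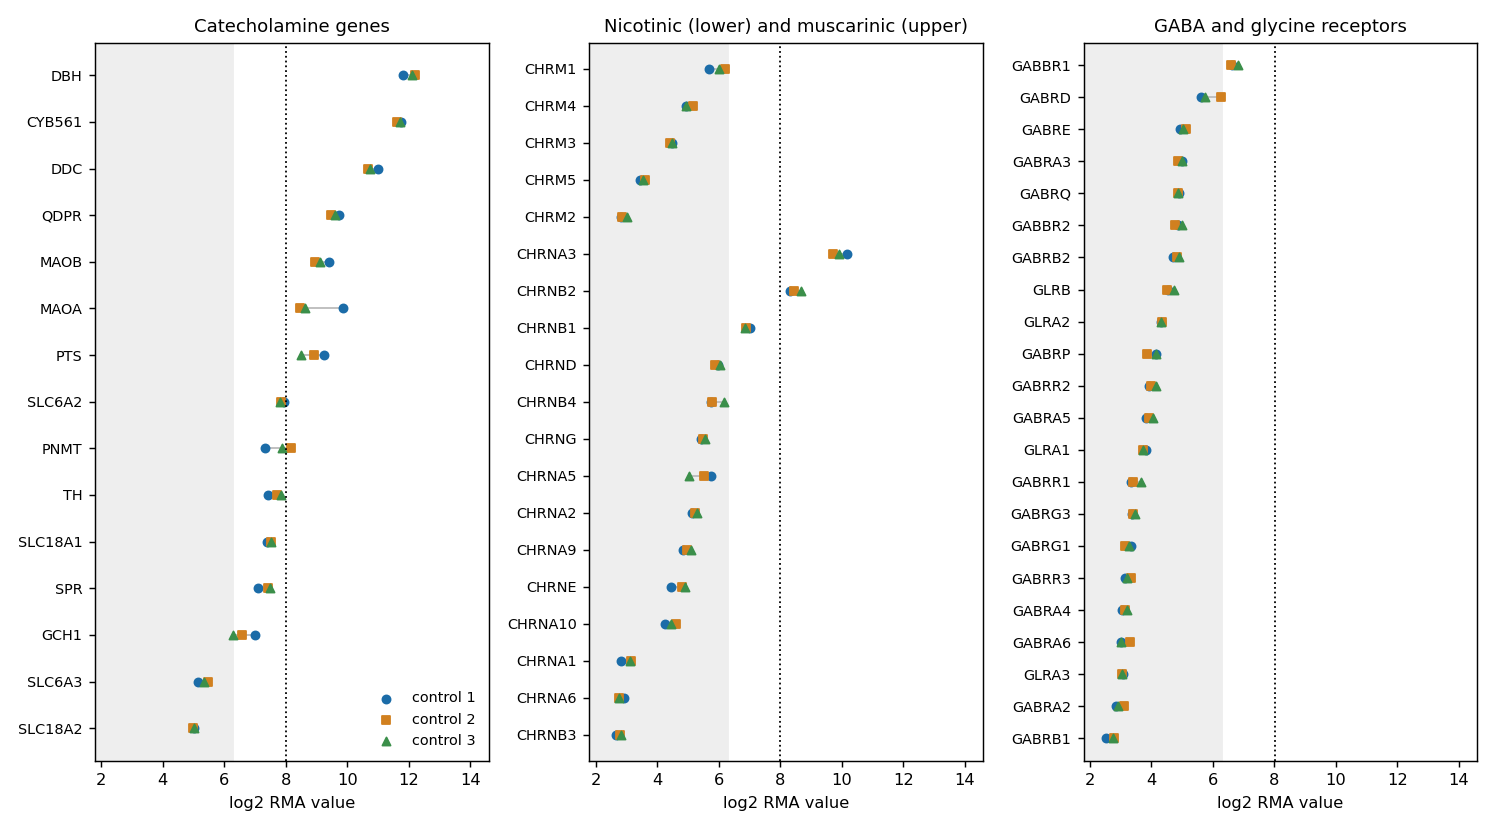
Log2 RMA value (x axis) of catecholamine genes, nicotinic and muscarinic receptors, and GABA and glycine receptor subunits in each control array (circle, square and triangle for controls 1, 2 and 3), ordered by mean; the grey band ends at the 95th percentile of the reference genes and the dotted line is the 99th, both averaged over the arrays. Most catecholamine genes lie right of the band, while CHRNA3, CHRNB2, CHRNB1 and GABBR1 are the receptor genes called above the range.

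Of 30 monoamine receptors 4 were above the range (13.3%, against 40.2% of all genes). ADRA2C, an alpha-2 adrenoceptor that restrains noradrenaline release, read 9.11, 9.88 and 9.43 with 2 of 2 probe sets above. DRD2, a dopamine receptor, had a mean of 6.56, close to the threshold. Of 37 peptide, opioid and purine receptors 6 were above the range (16.2%). CXCR4, the chemokine receptor of migrating neural crest cells, read 11.70, 11.10 and 11.37, with 4 of 4 probe sets above. ADCYAP1R1, the PACAP receptor, read 9.12, 8.82 and 9.19. OPRM1 and OPRD1, the mu and delta opioid receptors, were within the range at 6.22 and 5.90.

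Voltage-gated channels carry the action potential. Of 11 sodium channel genes 1 was above the range (9.1%, against 40.2% of all genes), the beta subunit SCN2B at 6.51. No alpha subunit was above it. SCN3B, another beta subunit, read 7.33, 6.21 and 6.54, so controls 1 and 3 passed and control 2 did not. Of 24 potassium and HCN channels 6 were above the range (25.0%). KCNH2, the hERG channel, read 11.69, 12.08 and 11.85, with 3 of 3 probe sets above, and KCNQ1 had a mean of 8.28. Of 17 calcium channel genes 3 were above the range (17.6%). CACNA2D2, an auxiliary subunit, read 9.37, 9.41 and 9.30, while the pore-forming CACNA1G, of T-type channels, and CACNA1B, of N-type channels, had means of 6.99 and 6.94.

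**Figure D4:**
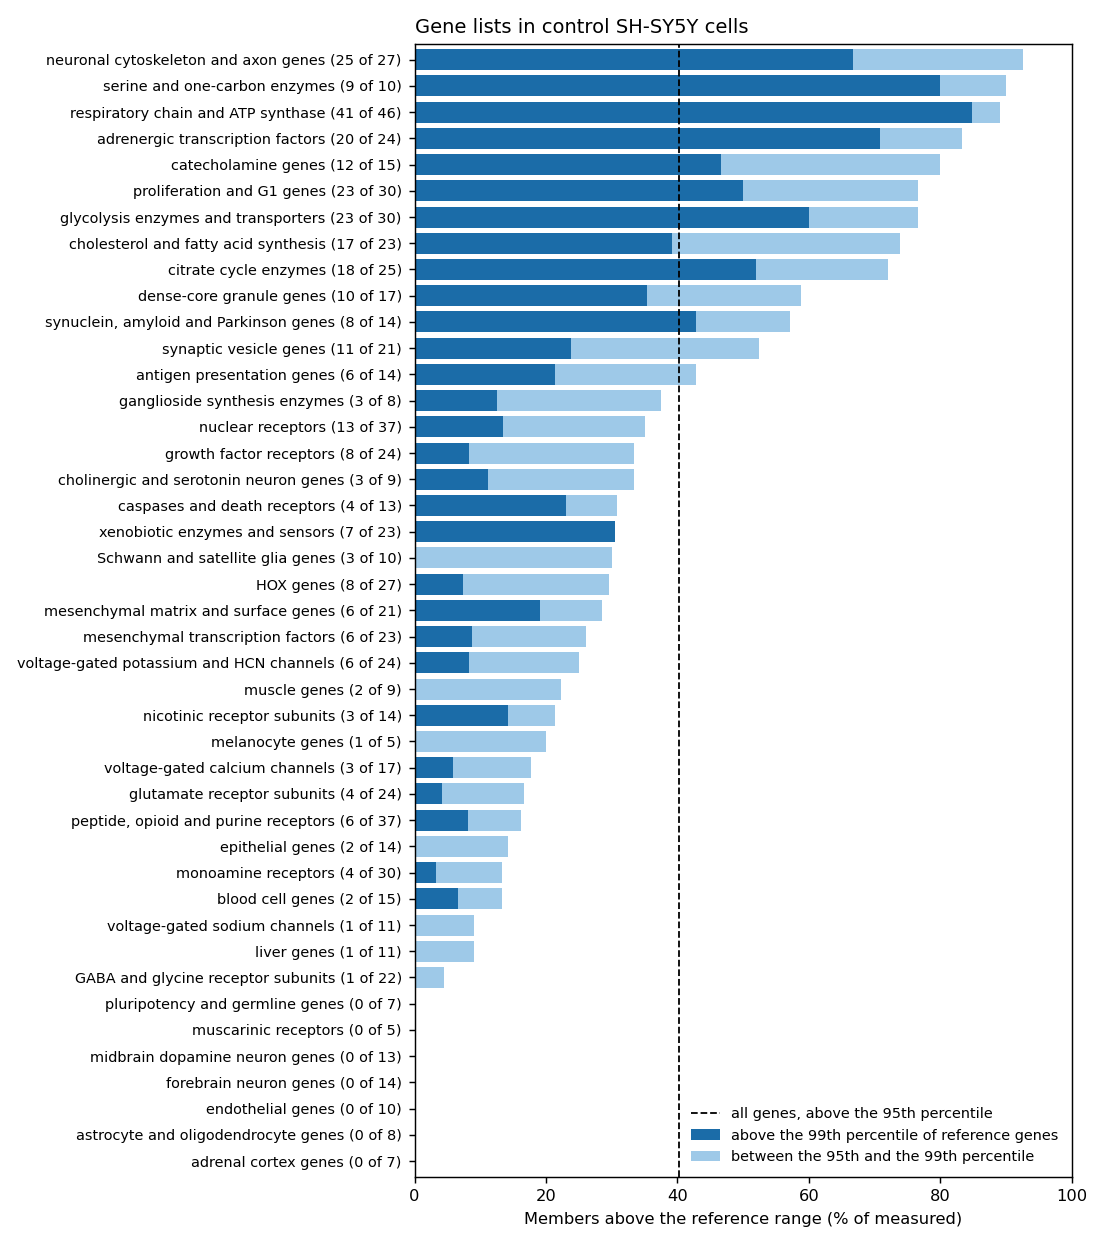
Share of measured members of each gene list (y axis) that were above the reference range in all 3 control arrays (x axis, percent), with the part above the 99th percentile shown separately and the share for all 18132 genes, 40.2%, as a line. Cytoskeleton, respiratory chain, serine and one-carbon, adrenergic factor and catecholamine lists lie far right, and 7 lists have no member above the range.

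Growth factor receptors were above the range for 8 of 24 members (33.3%), near the 40.2% of all genes. FGFR1, a fibroblast growth factor receptor, read 8.44, 8.45 and 8.40. ALK, the receptor kinase mutated in some neuroblastomas, read 8.58, 8.10 and 8.20, and RET, the receptor of GDNF family ligands, 8.53, 8.11 and 8.02. IGF1R, the insulin-like growth factor receptor, read 7.92, 6.77 and 7.13, with 1 of 7 probe sets above. Nuclear receptors, transcription factors that bind hormones and lipids, were above the range for 13 of 37 members (35.1%), also near that share. THRA, a thyroid hormone receptor, had a mean of 10.46 and NR2F6, an orphan receptor, 9.96. RXRB, a partner of many receptors, read 9.12, 9.86 and 9.53, but was not above the range with the mean of its probe sets. ESR1, an oestrogen receptor, and NR3C1, the glucocorticoid receptor, were within the range at 6.16 and 4.13. Among the 13 members above the range, 2 were higher in control 1 than in the mean of the others, with a median difference of -0.28. Over all genes above the range, 48.0% were higher in control 1, with a median difference of -0.025. HOX genes mark position along the body axis, and 27 of 39 listed were measured. Of these, 8 were above the range (29.6%, against 40.2% of all genes), 7 of them in the C and D clusters. HOXA2 was the only A cluster gene measured, so the A cluster was hardly covered. HOXC6 read 9.77, 9.87 and 9.70 and HOXC4 8.91, 8.82 and 8.77.

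Energy metabolism lists were mostly above the range, against 40.2% of all genes above it. Of 46 respiratory chain and ATP synthase genes 41 were above it and 39 above the 99th percentile, with a median of 11.16. The 5 within it were COX4I2, COX6B2, COX6A2, COX7A1 and COX8C, all tissue-restricted isoforms of cytochrome oxidase subunits. COX6A1 and COX4I1, the widely expressed counterparts, had means of 13.53 and 12.69. Of 30 glycolysis genes 23 were above the range. GAPDH read 13.64, 13.77 and 13.77, and PGK1, phosphoglycerate kinase, 12.76, 12.70 and 12.70 with 9 of 9 probe sets above. LDHA and LDHB, the lactate dehydrogenase subunits, were both higher in control 1: LDHA read 13.30, 12.59 and 12.66, and LDHB 11.58, 10.29 and 10.59. HK1, a hexokinase, and SLC2A1, a glucose transporter, had means of 10.87 and 10.74.

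Of 25 citrate cycle genes 18 were above the range, with MDH2, mitochondrial malate dehydrogenase, at 12.12 and CS, citrate synthase, at 11.14. Serine and one-carbon enzymes were above it for 9 of 10 members. PHGDH, the first enzyme of serine synthesis, read 11.09, 11.69 and 11.73, TYMS, thymidylate synthase, 12.13, 12.05 and 11.85, and the exception was MTHFD2L at 3.66. Of 23 cholesterol and fatty acid genes 17 were above the range (73.9%). ACLY, which makes cytosolic acetyl-CoA, had a mean of 11.42, SCD, a desaturase, 10.74, and FDPS, farnesyl diphosphate synthase, 10.49. Of 8 ganglioside enzymes 3 were above the range (37.5%, near the 40.2% of all genes). They were ST3GAL2 at 8.63, B4GALNT1, which makes GM2 and GD2, at 7.62, and ST3GAL5, which makes GM3, at 7.46. ST8SIA1, the synthase of GD3, was within the range at 2.98.

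Xenobiotic genes were above the range for 7 of 23 members (30.4%, against 40.2% of all genes). All 7 were also above the 99th percentile, against 19.3% of all genes. GSTP1, a glutathione transferase, read 12.78, 13.24 and 13.14. GSTM3, another, read 10.66, 9.74 and 10.33, and ABCC1, an efflux pump, 9.76, 9.20 and 9.45. CYP1A2, a liver cytochrome P450, read 8.37, 8.51 and 8.81 from 1 of 2 probe sets, while its relative CYP1A1 was within the range at 5.78 and ABCB1, the multidrug pump, at 5.75.

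Proliferation genes were above the range for 23 of 30 members (76.7%, against 40.2% of all genes). MCM7, a subunit of the replicative helicase, read 12.74, 12.81 and 12.88, CDK4, the kinase of G1, 10.95, 11.49 and 11.26, and CCND1, its cyclin, 10.32, 10.00 and 9.94. The cyclin CCND2 and the tumour suppressors RB1 and CDKN2B were among the 7 within the range. Caspases and death receptors were above it for 4 of 13 members (30.8%, against 40.2% of all genes). These were TNFRSF10B at 10.14, CASP2 at 9.38, FADD at 9.10 and CASP9 at 7.92. CASP8, the initiator caspase silenced in many neuroblastomas, read 4.46, 4.38 and 4.36, with 0 of 8 probe sets above. Antigen presentation genes were above the range for 6 of 14 members (42.9%), near the share of all genes. B2M, the light chain of class I molecules, read 10.94, 9.98 and 9.66, and HLA-C and HLA-B had means of 7.95 and 7.79, although probes may not tell these similar genes apart. TAP1, the peptide transporter, and PSMB8 and PSMB9, subunits of the immunoproteasome, were within the range. Of 14 synuclein, amyloid and Parkinson genes 8 were above it, with PARK7 at 11.85, APLP1 at 10.21, APP at 9.57 and PINK1 at 8.33. SNCB and SNCG, beta and gamma synuclein, were within the range at 6.04 and 6.33.

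Genes of unrelated lineages were mostly within the range, while 40.2% of all genes were above it. No member was above it among 10 endothelial, 7 pluripotency and 7 adrenal cortex genes. With olfactory receptors alone as reference genes, 4, 1 and 2 of them were. It was exceeded by 2 of 14 epithelial, 1 of 11 liver, 2 of 9 muscle and 1 of 5 melanocyte genes, all between the percentiles: MUC1 and KRT19, F2, DES and PAX3, and PMEL. Of 15 blood cell genes 2 were above the range. TMEM119, known as a microglial marker, was above the 99th percentile with 8.68, 9.04 and 9.18 and 2 of 2 probe sets, while AIF1, CD68 and SPI1, other genes of that lineage, were at 4.73, 5.95 and 3.71.

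Between-array spread was small for most genes. The median SD was 0.163 over all genes and 0.236 over the genes above the range, of which 53.4% had an SD under 0.25. The arrays spanned more than 1 log2 unit, a 2-fold difference, for 323 of the 7295 genes above the range (4.43%). Control 1 was the array farthest from the middle value in 272 of these 323 and the highest in 278. Without control 1, 7 genes differed by more than 1 between the remaining arrays. All 20 genes with the widest range spanned more than 1 unit, led by XRCC5, the Ku80 subunit of DNA end joining, with 9.81, 8.05 and 8.35. SNORA12, a small nucleolar RNA, ran the other way with 7.28, 8.97 and 7.81.

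Among the 320 list members above the range, 23 spanned more than 1 unit, and all 23 were highest in control 1. ACACA, acetyl-CoA carboxylase of fatty acid synthesis, had 9.03, 7.54 and 7.99, with 1 of 3 probe sets above the range. UQCRC2, a core subunit of complex III, had 9.89, 8.59 and 8.75, with 1 of 2 above. NCAM1, a neural adhesion molecule, had 10.53, 9.35 and 9.90, with 1 of 6 above. Controls 2 and 3 lay closer to each other than to control 1 in each of these. MAOA, LDHB, B2M, MDH1, SMAD3, CPE, IGF1R, SNAP25, PARK7, MKI67 and DCX were also among the 23. Levels of these genes thus depended on which arrays were averaged.

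**Figure D5:**
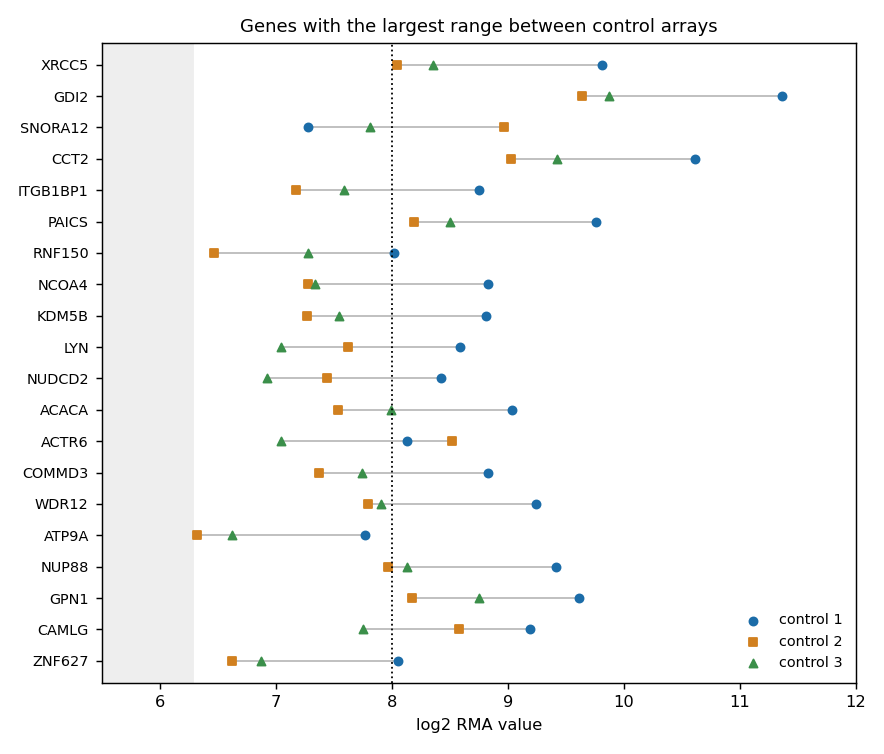
Log2 RMA value (x axis) in each control array (circle, square and triangle for controls 1, 2 and 3) of the 20 genes above the reference range with the largest range between arrays; the grey band ends at the 95th percentile of the reference genes and the dotted line is the 99th, both averaged over the arrays. Control 1 lies highest for most of these genes, with SNORA12 and ACTR6 as exceptions.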

How the data were processed

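The authors deposited 1 table of log2 values per probe set and array. Per the submitters' processing notes, it was made with Affymetrix Expression Console and RMA, which corrects background, equalises array distributions and summarises probes; the versions were not given in the sources used here. This step removes shifts shared by most transcripts and compresses low values. Scanner intensities were not used here, so background was judged from reference genes.

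The table held 49395 rows, of which 102 were array controls. By the platform annotation 1832 probe sets named several genes and 2473 no gene. The other 44988 each named a single gene, and the IDs of 44961 were found in the RefSeq table of GRCh38.p14, and 0 symbols needed an update. Several probe sets were available for 11734 of the 18132 genes, and the brightest in the mean of the control arrays was used, which favours higher values. Thresholds came from brightest probe sets of reference genes as well. Groups came from the agent label. With 1 group, no test between groups was made and no p-value is given. With 3 arrays, their number limits the precision of each mean ± SD.

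Named genes are list members, the 20 highest and the 20 widest in range. The members and lists were chosen with earlier results of these data known. Alternatives were the stricter percentile, olfactory receptors alone as reference, the mean or every probe set of a gene, a call on the array mean, centring, further quantile normalization and leaving out each array. Computations used Python 3.11.15 with pandas 2.3.3, numpy 2.4.6 and matplotlib 3.10.9.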

Additional observations from a re-analysis of the deposited data

How the results depend on the processing

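Centring shifts all values of an array alike, so by construction it could change no call and says nothing about stability. A further quantile normalization keeps the order of values within an array. It could change a call only through the choice of brightest probe set or the threshold, changed none and says little about stability. At the 99th percentile, 3495 genes, 202 list members, 2 mesenchymal factors and 7 catecholamine genes were above the range. Requiring every probe set of a gene to pass thresholds set from single probe sets of the reference genes, a change of rule and of threshold, gave 3093 genes, 144 list members, 10 adrenergic factors, 2 mesenchymal factors and 5 catecholamine genes. Olfactory receptors alone as reference gave 10108 genes, 436 list members and 12 mesenchymal factors, and each of the 7 lists with no member above the range then had 1 to 4. Averaging all probe sets of a gene gave 5815 genes, 267 list members and 2 mesenchymal factors, and 124 genes with an array range over 1. Leaving out 1 array gave 7430 to 7471 genes and 324 to 325 list members above the range, and 7 to 269 genes with a range over 1, the lowest without control 1. The median SD was 0.0979 to 0.164. No paired analysis was possible because only the control arrays were used and the results come from no test. Signal over background limits what can be said: values between the percentiles, and some above the 99th, overlap GC-rich background probes, and the cause of differences between settings was not tested.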

Other observations

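Probe sets of a gene often differed. Of 5525 genes above the range with several probe sets, 1284 had all of them above the threshold and 2682 had 1. APP, the amyloid precursor, had 7 of 13 probe sets above, B2M 8 of 8 and RARA, a retinoic acid receptor, 3 of 10.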
